A study of Homo sapiens with 6 samples.

Results

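The 10 genes described here are a set of core components of the transforming growth factor beta (TGF-beta) pathway: the ligands TGFB1 and TGFB2, the receptors TGFBR1, TGFBR2 and TGFBR3, the receptor-regulated SMAD2 and SMAD3, the shared partner SMAD4, and the inhibitory SMAD6 and SMAD7. They were taken by symbol from a count table of 30230 genes. All 10 had a row and all 10 were among the 17076 genes that passed the filter on low counts and were tested. The samples were 6 libraries of polyadenylated RNA from A549, an established human lung adenocarcinoma cell line. In 3 libraries (siFSCN1) the actin-bundling protein gene FSCN1 had been silenced with an siRNA, and 3 libraries (NC) were the negative control. The labels of the NC samples name a control plasmid, whereas the methods of the study describe a scrambled siRNA delivered with the same lipid reagent. The sequenced cells received a single one of the siRNAs that the study had designed, so that an effect of silencing FSCN1 and an effect of that siRNA alone cannot be told apart. The study describes the libraries of a group as biological replicates, and the labels add nothing on separate cultures, so p-values measure the spread between these libraries.

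TGF-beta ligands are secreted in a latent form that is held by latency proteins and released by proteases and integrins. The active ligand brings together the type II receptor TGFBR2 and the type I receptor TGFBR1, often presented by the co-receptor TGFBR3 (betaglycan), and TGFBR1 phosphorylates SMAD2 and SMAD3. These bind SMAD4 and enter the nucleus, where they raise or lower target genes, among them SMAD7, which together with SMAD6 feeds back on the receptors. In lung epithelium and its tumours the pathway is known for growth arrest, for matrix production and for the shift from epithelial to mesenchymal traits.

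The libraries held between 27967301 and 36560919 counts, and no member had fewer than 401 counts in any of them. FSCN1 was at 45.0 to 47.2 FPKM (fragments scaled to transcript length and to the fragments mapped in the library) in NC and at 2.82 to 4.46 FPKM in siFSCN1, with 6.75% of its NC level left by the fit. Its log2 fold change was -3.89 ± 0.094 (SE, adjusted p = 8.1e-16 in edgeR). Of the 6 epithelial markers, the keratins KRT7, KRT8, KRT18 and KRT19 were lower, with log2 fold changes from -1.19 to -0.88, and CDH1 and EPCAM were higher, at 1.35 and 0.29 (edgeR). Their sum, nearly all of it KRT7, KRT8 and KRT18, was between 16980 and 19200 CPM (counts scaled to library size) in NC and between 8734 and 10290 in siFSCN1. Leukocyte, endothelial and fibroblast marker lists each summed to under 2 CPM in every library, with VWF at 0 in NC and CD3E and COL1A2 at 0 in siFSCN1. Of the markers of differentiated alveolar type 2 cells, SFTPA1 and SFTPB had no row. The rest summed to between 1.40 and 1.56 CPM in NC and between 2.85 and 3.22 CPM in siFSCN1. Among them NAPSA was higher, at a log2 fold change of 1.78 ± 0.22 (SE, edgeR), and SFTPC and LAMP3 did not pass. In bulk RNA, fewer cells that express a gene and less RNA of it per cell cannot be told apart, and the part of the keratins and CDH1 in the results below was not tested.

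A large share of the transcriptome differed between the groups, and the members have to be read against it. At an adjusted p under 0.05 (edgeR's quasi-likelihood test, Benjamini-Hochberg over all tested genes) 68.3% of the 17076 genes passed, 35.1% higher and 33.2% lower in siFSCN1. Of the 10 members, 8 passed, 4 higher and 4 lower, a share of 80.0% that is near this background. At the further requirement of a 2-fold change 16.5% of all genes were called, 11.7% higher and 4.85% lower, and of the members only TGFB2, which was higher. The CPM of the 3 libraries did not overlap between groups for 8 members and for 71.3% of all genes. The median log2 fold change was 0.057 over the members and 0.031 over all tested genes. The split of called genes moved with the scaling of the libraries, from 1991 higher and 829 lower with TMM factors to 2637 and 510 with library totals alone, and to 1327 and 1171 after cyclic loess. The median gene moved with it, to 0.15 under upper quartile scaling and to 0.22 under library totals, and small changes of members are therefore given below with this shift named. The groups differed in the TMM factor itself, 0.933 to 0.942 in NC and 1.05 to 1.08 in siFSCN1.

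**Figure D1:**
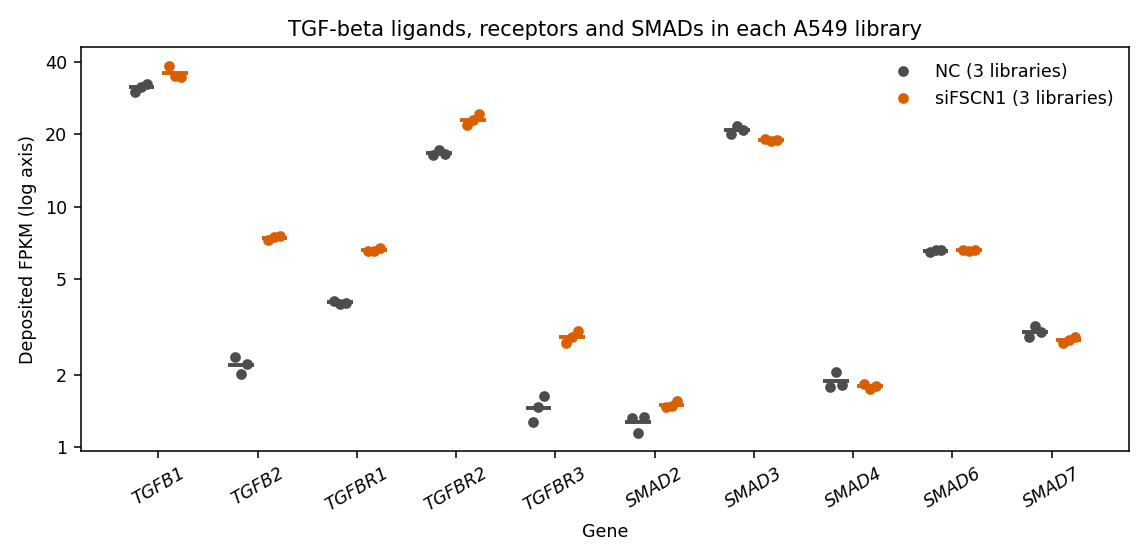
Deposited FPKM of the 10 members on a log axis, with a point for each of the 3 NC (grey) and 3 siFSCN1 (orange) libraries and a line at each group's mean. TGFB2 moves from about the level of SMAD4 in NC to above that of TGFBR1 in siFSCN1, the 3 receptors sit higher in siFSCN1, and the points of SMAD4 and SMAD6 overlap.

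TGFB2, a ligand with a lower affinity for TGFBR2 alone and a particular need for the co-receptor TGFBR3, rose 3.00-fold, whereas TGFB1, the more abundant ligand in these cells, did not pass the test. TGFB2 (ENSG00000092969.12, GRCh38 chr1:218345336-218444619) had 18.3, 15.4 and 16.7 CPM in the NC libraries and 48.5, 51.6 and 51.5 CPM in the siFSCN1 libraries. All 3 siFSCN1 libraries were high and lay close together, far from any NC library. The log2 fold change was 1.59 ± 0.061 (SE, adjusted p = 1.36e-13 in edgeR). Its exons overlap TGFB2-OT1 on the same strand and TGFB2-AS1 on the other, and how the authors' counting assigned such reads is not given in the sources used here. TGFB1 (ENSG00000105329.11, chr19:41301587-41353922) had 124.7, 130.0 and 132.2 CPM in NC and 139.5, 129.7 and 127.6 CPM in siFSCN1. The groups overlapped, and the high siFSCN1 value belonged to replicate 1. The log2 fold change was 0.036 ± 0.044 (SE, adjusted p = 0.475 in edgeR), and without siFSCN1 replicate 1 it was -0.019. In the deposited FPKM, which were scaled to mapped fragments with no correction for composition, TGFB1 was at 30.1 to 32.5 in NC and at 34.8 to 38.6 in siFSCN1, and with library totals its log2 fold change was 0.22, which passed. Part of its exonic sequence is shared with HNRNPUL1 on the opposite strand.

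The proportion of the ligands to each other was compared within each library. The ratio of TGFB2 to TGFB1 in FPKM was 0.0792, 0.0638 and 0.0684 in NC and 0.188, 0.215 and 0.218 in siFSCN1. TGFB1 remained the more abundant transcript in all 6 libraries, and the lowest siFSCN1 ratio was above the highest NC ratio. The log2 ratio was 1.56 higher on silencing (p = 0.1 by an exact two-sided permutation test, the smallest value that 3 against 3 libraries allow, and 0.117 adjusted over the 7 ratios computed). Such a ratio does not depend on how libraries are scaled to each other.

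All 3 receptors rose, with the largest fitted fold change for the co-receptor and the smallest for the type II receptor. TGFBR3 (ENSG00000069702.11, chr1:91680343-91906335), which binds ligand without a kinase of its own, had 13.9, 15.9 and 17.6 CPM in NC and 25.6, 27.9 and 29.2 CPM in siFSCN1. Every siFSCN1 library lay above every NC library, with the spread inside a group small beside the gap. The log2 fold change was 0.80 ± 0.077 (SE, 1.74-fold, adjusted p = 3.5e-08 in edgeR). TGFBR1 (ENSG00000106799.13, chr9:99104038-99154192), the type I kinase also called ALK5, had 35.2, 33.9 and 34.0 CPM in NC and 49.5, 50.6 and 51.9 CPM in siFSCN1. Its groups were tight and well apart, and the log2 fold change was 0.56 ± 0.050 (SE, 1.47-fold, adjusted p = 1.41e-08 in edgeR). TGFBR2 (ENSG00000163513.19, chr3:30606601-30694142), the type II kinase that binds ligand first, had 143, 149 and 141 CPM in NC and 166, 178 and 186 CPM in siFSCN1. Here the gap was smaller, yet no siFSCN1 library fell as low as any NC library, and the log2 fold change was 0.30 ± 0.044 (SE, 1.23-fold, adjusted p = 1.06e-05 in edgeR). The rises of TGFB2 and of the 3 receptors kept their direction and passed in all 16 alternative analyses, in which TGFB2 ranged from 1.40 to 1.77, TGFBR3 from 0.65 to 0.99, TGFBR1 from 0.53 to 0.75 and TGFBR2 from 0.25 to 0.54.

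The same was done for the receptors. TGFBR1 stood at 0.248, 0.229 and 0.241 of the FPKM of TGFBR2 in NC and at 0.299, 0.285 and 0.279 in siFSCN1. TGFBR3 stood at 0.0774, 0.0850 and 0.0990 of TGFBR2 in NC and at 0.123, 0.125 and 0.125 in siFSCN1. TGFBR2 was the most abundant of the 3 receptor transcripts in every library, and in both ratios the groups did not overlap. The log2 ratio was higher in siFSCN1 by 0.26 for TGFBR1 and by 0.52 for TGFBR3 (exact two-sided permutation p = 0.1 for each, the smallest allowed, and 0.117 adjusted over the 7 ratios).

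**Figure D2:**
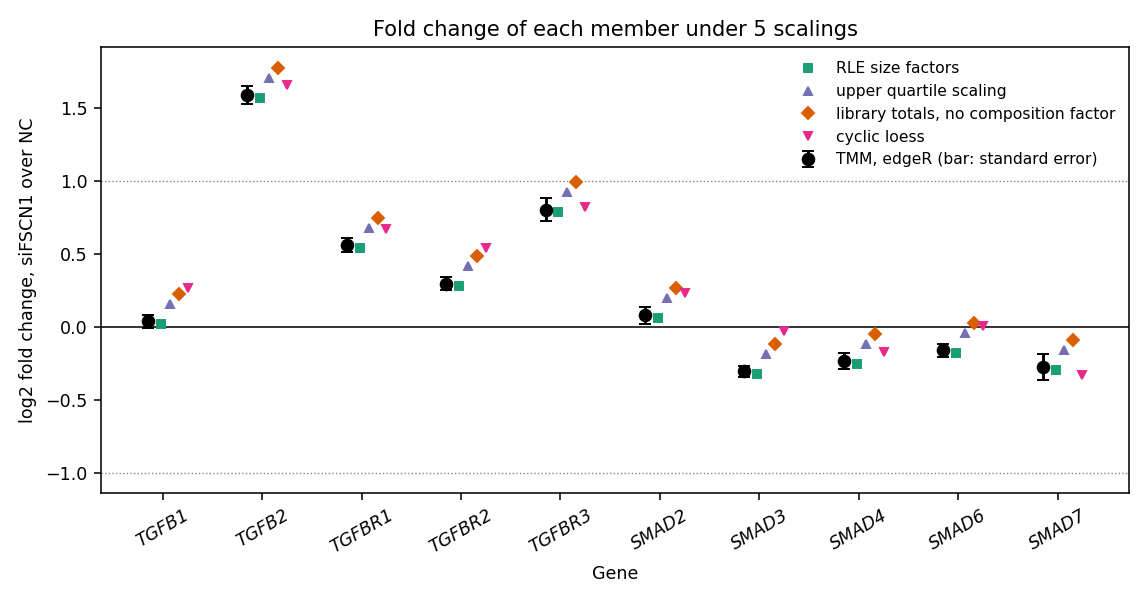
Log2 fold change of each member in siFSCN1 over NC, as fitted by edgeR with TMM factors (black, bars are the standard error) and under 4 other scalings of the libraries (coloured), with dotted lines at a 2-fold change. TGFB2 and the 3 receptors stay above 0 under all 5 scalings, whereas SMAD6 crosses 0 and SMAD3 comes close to it.

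Of the receptor-regulated SMADs, SMAD3 was lower in siFSCN1 and SMAD2 did not pass the test. SMAD3 (ENSG00000166949.17, chr15:67063763-67195173), which binds DNA directly, had 256, 271 and 259 CPM in NC and 211, 212 and 213 CPM in siFSCN1. The siFSCN1 libraries were almost equal and all below NC, and the log2 fold change was -0.30 ± 0.037 (SE, adjusted p = 7.81e-07 in edgeR). The value was -0.028 and did not pass after cyclic loess, the single alternative of 16 in which its call was lost. SMAD3 overlaps an unnamed gene on the opposite strand, and SMAD4 one on its own strand. SMAD2 (ENSG00000175387.16, chr18:47808957-47931146), whose full-length form does not bind DNA by itself, had 61.1, 52.8 and 60.5 CPM in NC and 59.3, 61.1 and 63.9 CPM in siFSCN1. The groups overlapped, NC replicate 2 was the low library, and the log2 fold change was 0.078 ± 0.058 (SE, adjusted p = 0.241 in edgeR), or 0.0039 without that library and 0.27, passing, with library totals. The ratio of SMAD3 to SMAD2 in FPKM was 15.3, 18.8 and 15.7 in NC and 13.02, 12.6 and 12.2 in siFSCN1, a log2 difference of -0.39 (exact two-sided permutation p = 0.1, the smallest allowed).

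The shared partner and the inhibitory SMADs were lower by small amounts under TMM, and these changes depend on the scaling. SMAD4 (ENSG00000141646.14, chr18:51028528-51085045) had 29.7, 33.9 and 29.6 CPM in NC and 26.7, 26.0 and 26.4 CPM in siFSCN1. Its groups did not overlap in CPM but did in FPKM, and the log2 fold change was -0.23 ± 0.057 under TMM (SE, adjusted p = 0.00138 in edgeR) and -0.048, not passing, with library totals. SMAD7 (ENSG00000101665.10, chr18:48919853-48950965), which recruits ubiquitin ligases to the receptors, had 14.4, 15.8 and 14.8 CPM in NC and 11.9, 12.5 and 12.7 CPM in siFSCN1. The siFSCN1 libraries were all lower, and the log2 fold change was -0.28 ± 0.089 under TMM (SE, adjusted p = 0.01 in edgeR) and -0.090, not passing, with library totals. SMAD6 (ENSG00000137834.15, chr15:66702236-66782849), which acts mainly on bone morphogenetic protein (BMP) signalling, had 70.8, 71.0 and 70.6 CPM in NC and 62.7, 64.0 and 63.4 CPM in siFSCN1. The groups were tight and apart in CPM, with a log2 fold change of -0.16 ± 0.045 under TMM (SE, adjusted p = 0.00398 in edgeR) that turned to 0.027 with library totals, and in FPKM the libraries overlapped at 6.51 to 6.62 in NC and 6.58 to 6.62 in siFSCN1. Relative to the median gene of the same fit, the 4 members lower under TMM stood at -0.34 (SMAD3), -0.27 (SMAD4), -0.19 (SMAD6) and -0.31 (SMAD7). Library totals gave the same 4 values, which had to be so, because both scalings shift all genes and their median nearly alike. After cyclic loess, which does not shift all genes alike, the 4 members stood at -0.022, -0.17, 0.0083 and -0.33 in that order. With log2(FPKM + 1) they stood at -0.21, -0.13, -0.076 and -0.16.

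Ratios among the SMADs were compared within the libraries as well. The ratio of SMAD7 to SMAD3 in FPKM was 0.142, 0.147 and 0.145 in NC and 0.142, 0.150 and 0.151 in siFSCN1. The groups overlapped and the log2 ratio differed by 0.027 (exact two-sided permutation p = 0.5). The ratio of SMAD6 to SMAD7 was 2.18 ± 0.099 in NC and 2.36 ± 0.066 in siFSCN1 (SD, n = 3), higher by 0.12 on the log2 scale (exact two-sided permutation p = 0.1, the smallest allowed). The ratio of SMAD4 to SMAD2 was 1.497 ± 0.25 in NC and 1.19 ± 0.054 in siFSCN1 (SD, n = 3), a log2 difference of -0.32 (exact two-sided permutation p = 0.1, the smallest allowed). All 7 ratios kept their direction in each alternative computed for them, and adjusted over the 7 the p of 0.1 was 0.117.

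**Figure D3:**
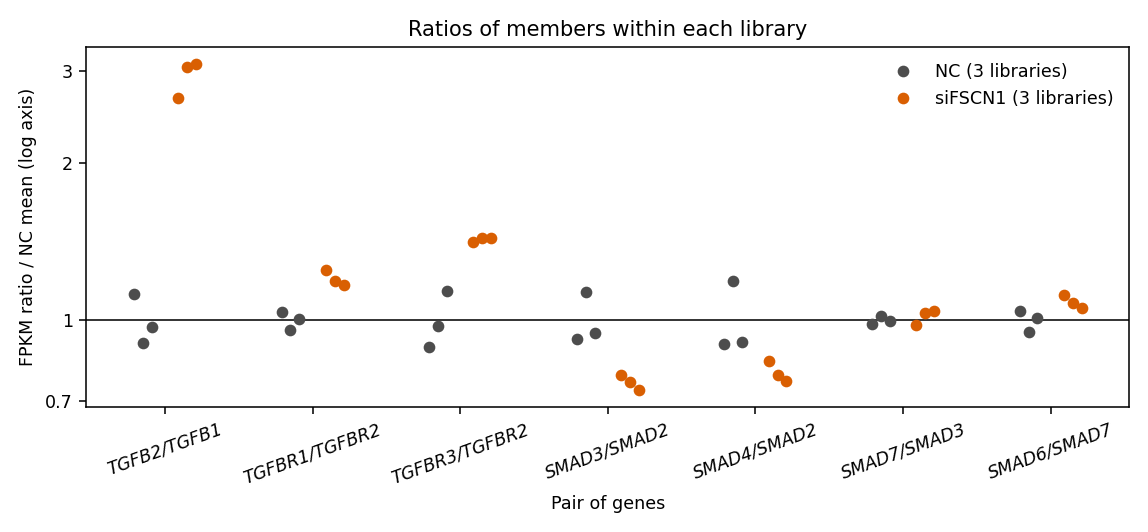
Ratio of the deposited FPKM of a pair of members within each library, divided by the mean ratio of the NC libraries and drawn on a log axis, for 3 NC (grey) and 3 siFSCN1 (orange) libraries. TGFB2 over TGFB1 is the pair that moves most, both receptor ratios are higher, both ratios to SMAD2 are lower, and SMAD7 over SMAD3 overlaps.

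Per length, the order of the members changed at the ligand and receptor level. In NC the deposited FPKM ran from TGFB1 at 31.4 ± 1.2 through SMAD3 at 20.9 ± 0.72 and TGFBR2 at 16.7 ± 0.47 to SMAD6 at 6.57 ± 0.057, TGFBR1 at 4.01 ± 0.057 and SMAD7 at 3.02 ± 0.16 (SD, n = 3). Below them lay TGFB2 at 2.21 ± 0.18, SMAD4 at 1.88 ± 0.15, TGFBR3 at 1.46 ± 0.19 and SMAD2 at 1.27 ± 0.10 (SD, n = 3). The libraries of TGFB2 and SMAD4 overlapped, as did those of TGFBR3 and SMAD2, and every other neighbouring pair was apart. In siFSCN1 the order ran from TGFB1 at 36.1 ± 2.2 and TGFBR2 at 23.1 ± 1.1, now above SMAD3 at 18.9 ± 0.22, to TGFB2 at 7.45 ± 0.17, TGFBR1 at 6.62 ± 0.13 and SMAD6 at 6.60 ± 0.021 (SD, n = 3). The last places were held by TGFBR3 at 2.87 ± 0.17, SMAD7 at 2.79 ± 0.070, SMAD4 at 1.79 ± 0.050 and SMAD2 at 1.503 ± 0.049 (SD, n = 3). TGFBR1 overlapped SMAD6 and TGFBR3 overlapped SMAD7, and the other neighbours were apart.

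These levels rest on the length by which counts are divided. SMAD2 has an exonic length of 36426 bases in GENCODE release 44 against 3264 to 19606 for the other members, and only 1401 bases of its MANE Select transcript of 34626 bases are coding. The deposited FPKM of SMAD4 and TGFBR1 correspond to a shorter length than this exonic length, 0.669 and 0.854 of it. In CPM, which is not divided by length, SMAD2 at 58.1 ± 4.6 was above SMAD4 at 31.1 ± 2.4 in NC (SD, n = 3), the reverse of their order in FPKM. With the length of the MANE Select transcript in place of the exonic length, SMAD4 ranked above TGFB2 in NC, TGFB2 ranked below SMAD6 in siFSCN1, and TGFB1 first and SMAD2 last in both groups were kept. The ratio of SMAD6 to SMAD7 in NC was 4.13 per MANE length against 2.18 in FPKM, whereas the difference between groups in each ratio does not depend on length.

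Short windows of the members' promoters are shown to give the letters of DNA elements long tied to this pathway. The sequences are RefSeq promoters of GRCh38.p14, each 250 bases before to 50 after an annotated start, and all 10 members had at least 1 of the 25 promoters found for them. Both strands were searched for the palindromic SMAD-binding element GTCTAGAC, the CAGA box CAGAC (on the other strand GTCTG), the AP-1 site TGAGTCA (on the other strand TGACTCA) and the cyclic AMP response element TGACGTCA, none of which contains another. In the windows of 30 bases below, read 5′ to 3′ on the gene's strand, capitals mark the match.
SMAD6, chr15:66702213-66702242, plus strand: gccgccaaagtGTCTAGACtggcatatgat
TGFB2, chr1:218345271-218345300, plus strand: ctttgttgaaggCAGACacgtggttcagag
SMAD7, chr18:48951165-48951194, minus strand: gccggacgccccCAGACctctgaggttcga
TGFBR2, chr3:30606584-30606613, plus strand: ttgaagttgagTGAGTCActcgcgcgcacg

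The palindrome was present in 0.202% of 35116 promoters and, among the members, in that of SMAD6, at position -12 from the start. The CAGA box was found in 45.3% of all promoters and in 10 of the 25 member promoters, which belong to TGFB2, TGFBR1, SMAD3 and SMAD7, so a match is common anywhere. The AP-1 letters occurred in 4.95% of promoters and in those of TGFBR2 and SMAD3, one a member that rose and the other a member that was lower under TMM. The cyclic AMP response element was in 1.85% of promoters and in 0 of the members' windows. A match describes letters and not binding, and a missing match says only that these letters are not in this window.

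The wider pathway was followed in 9 gene lists with 122 genes outside the members, of which 118 had a row and 95 were tested. Of the 95 genes, 41 were higher, 28 were lower and 26 did not pass, so 72.6% passed against the background of 68.3%, and 17.9% were called at 2-fold against 16.5%. Their median log2 fold change was 0.075. The lists differed in direction, and each is described by its counts and median beside these shares.

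Genes listed for ligand storage and release were mostly higher. Of 12 tested ligand activation genes, 10 were higher, 1 was lower and 1 did not pass, with a median log2 fold change of 0.76. Over all genes 35.1% were higher and 33.2% lower. Some of the higher ones, named here for their low counts, were near the floor in NC. LRRC32 had 0 to 5 counts in NC and 15 to 23 in siFSCN1, and passed the count filter only through siFSCN1. ITGB6, ITGB8 and TGFB3 were at 0.58 to 0.87 CPM in NC, and FBN1 at 2.04 to 2.58 CPM. With a stricter filter 9 were higher. LTBP1, which encodes a protein that tethers the latent ligand to the matrix, and LTBP2, named for the same family, both rose. LTBP2 went from 5.05, 5.43 and 4.93 CPM to 12.6, 12.6 and 13.1 CPM (log2 fold change 1.32 ± 0.11, adjusted p = 4.05e-09 in edgeR). LTBP1 rose by 0.69 ± 0.082 on the log2 scale (SE), while LTBP4, of the same family, was at -0.014 ± 0.059 (SE, adjusted p = 0.843 in edgeR). FURIN, the protease that cleaves the ligand precursors, had 46.8, 45.5 and 46.8 CPM in NC and 74.7, 67.9 and 69.7 CPM in siFSCN1, with every siFSCN1 library higher (log2 fold change 0.61 ± 0.051, adjusted p = 5.5e-09 in edgeR). TGFB3, the remaining TGF-beta ligand, named after its values were seen, had 19 to 23 counts in the NC libraries and 46 to 62 in the siFSCN1 libraries, with a log2 fold change of 1.18 ± 0.25 (SE, adjusted p = 0.00039 in edgeR). It stayed far below TGFB1 and TGFB2, at 0.273 FPKM in siFSCN1.

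The other receptors of the family were mostly higher as well. Of 8 tested type I and type II receptors, 6 were higher, 0 were lower and 2 did not pass, with a median of 0.35. Of all genes 35.1% were higher. In 6 of 16 alternatives, among them DESeq2 and the fit with no filter beyond 1 count, 1 receptor passed as lower. BMPR1B, a type I receptor for BMPs, had 14.8, 15.6 and 14.6 CPM in NC and 30.9, 32.1 and 35.5 CPM in siFSCN1. All siFSCN1 libraries were well above all NC libraries, 2.19-fold by the fit, at a log2 fold change of 1.13 ± 0.063 (SE, adjusted p = 2.08e-11 in edgeR). BMPR2, the type II receptor for BMPs, rose by 0.47 ± 0.065 on the log2 scale (SE), and it overlaps an unnamed gene on its own strand. The activin type I receptor ACVR1B rose by 0.42 ± 0.053 and BMPR1A by 0.28 ± 0.058 on the same scale (SE).

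Ligands of the other branches and the listed antagonists moved both ways. Of 10 tested BMP, GDF and activin ligands, 3 were higher and 4 were lower, with a median of -0.15, where 35.1% of all genes were higher and 33.2% lower. With a stricter filter 1 such ligand was higher and 3 were lower. GDF15, a distant family member often raised by stress, was lower at 50.8, 48.5 and 47.9 CPM in siFSCN1 against 109.9, 128 and 121 CPM in NC (log2 fold change -1.29 ± 0.055, adjusted p = 5e-13 in edgeR). The activin subunit gene INHBB fell by 0.40 ± 0.041 and BMP8B, which overlaps PPIE on the other strand, by 0.54 ± 0.12 on the log2 scale, while BMP6, which overlaps TXNDC5, rose by 0.49 ± 0.11 (SE). Of 7 tested antagonists, 3 were higher and 2 were lower, with a median of 0.075, beside the same shares of all genes. The lower ones were FSTL3, a follistatin-like binder of activins, at a log2 fold change of -0.97 ± 0.054 (SE, adjusted p = 2.36e-11 in edgeR), and NBL1 at -0.27 ± 0.055, which shares exons with a MICOS10 readthrough gene and did not pass in 3 of 16 alternatives. The higher ones included GREM1 and FST, both named after their values were seen. GREM1 was under 6 CPM in every library. FST had 3 to 7 counts in NC and 28 to 34 in siFSCN1. It therefore passed the count filter only through the siFSCN1 libraries. With a stricter filter 1 antagonist was higher.

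The SMADs of the BMP branch are SMAD1, SMAD5 and SMAD9, named after their values were seen. SMAD1 had 7.30, 8.81 and 7.24 CPM in NC and 2.99, 2.79 and 3.09 CPM in siFSCN1, a log2 fold change of -1.39 ± 0.13 (SE, adjusted p = 1.76e-08 in edgeR). It fell further than any SMAD among the members, and its siFSCN1 libraries were close together. SMAD5 had a log2 fold change of -0.14 ± 0.067 (SE, adjusted p = 0.0666 in edgeR), and SMAD9 was not tested because of low counts. SMAD1 overlaps SMAD1-AS1 on the opposite strand.

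Genes listed as regulators of SMAD signalling moved both ways. Of 24 tested SMAD regulators, 8 were higher, 9 were lower and 7 did not pass under TMM, with a median of 0.019. These counts are near the shares of all genes, 35.1% higher and 33.2% lower. The split depended on the scaling, with 14 higher and 4 lower under library totals, 12 and 6 under upper quartile scaling and 11 and 6 after cyclic loess. SKIL, a nuclear co-repressor of SMADs and itself a TGF-beta target gene, rose from 29.5, 33.2 and 33.4 CPM to 58.8, 62.4 and 63.7 CPM (log2 fold change 0.94 ± 0.058, adjusted p = 7.14e-11 in edgeR). NEDD4L, a ubiquitin ligase for SMAD2 and SMAD3, rose by 0.70 ± 0.053 on the log2 scale (SE). STUB1, a chaperone-linked ubiquitin ligase that can act on SMADs, was lower at 64.6, 56.8 and 51.6 CPM against 123.5, 125 and 123 CPM (log2 fold change -1.10 ± 0.061, adjusted p = 1.85e-11 in edgeR), and it overlaps JMJD8 on the opposite strand. LEMD3, an inner nuclear membrane protein that holds back SMADs, fell by 0.91 ± 0.094 on the log2 scale (SE).

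**Figure D4:**
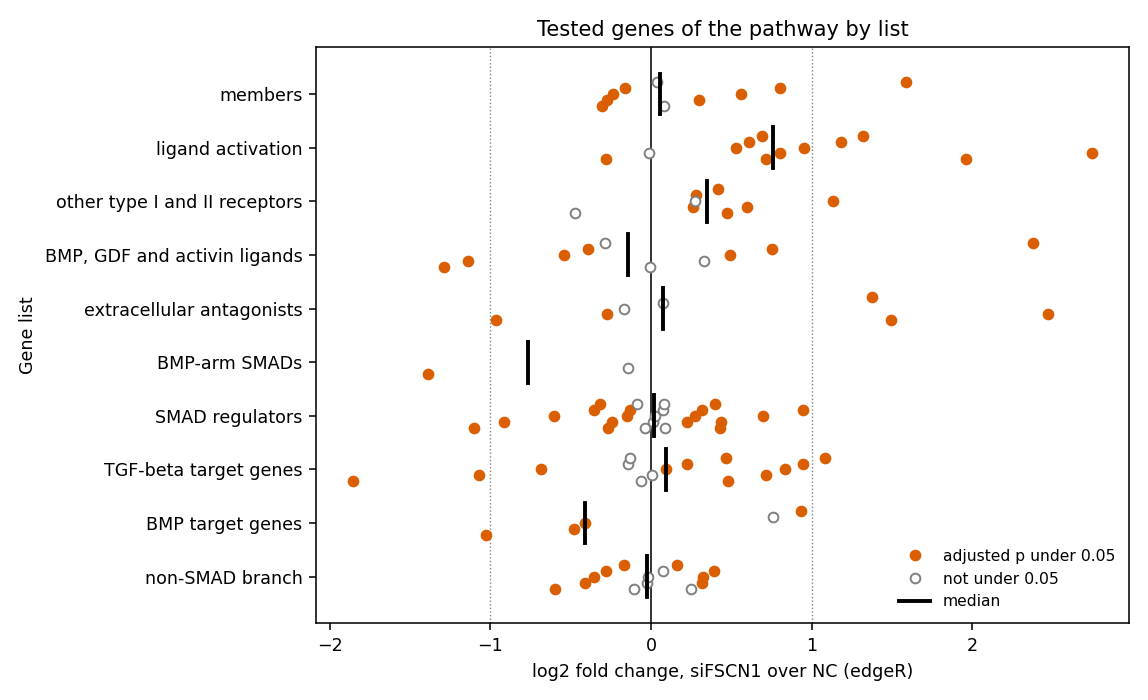
Log2 fold change in siFSCN1 over NC of the tested genes of the members and of the 9 pathway lists, with a filled point for an adjusted p under 0.05, an open point otherwise, a black line at each list's median and dotted lines at a 2-fold change; points are spread vertically only to be seen. Ligand activation and the other receptors lie mostly to the right, the target and regulator lists spread to both sides.

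Target genes of TGF-beta did not move as a block. Of 15 tested target genes, 8 were higher, 3 were lower and 4 did not pass, with a median of 0.095 beside 0.031 over all genes. Of all genes 35.1% were higher and 33.2% lower. FN1, the gene of the matrix protein fibronectin, had 314, 298 and 314 CPM in NC and 631, 627 and 699 CPM in siFSCN1. Every siFSCN1 library was far above every NC library, 2.12-fold by the fit, at a log2 fold change of 1.08 ± 0.044 (SE, adjusted p = 2.82e-13 in edgeR). CCN2, a matricellular growth factor, rose from 10.4, 8.92 and 8.55 CPM to 16.03, 16.8 and 16.8 CPM (log2 fold change 0.83 ± 0.098, adjusted p = 5.85e-07 in edgeR). PMEPA1, a membrane protein that limits SMAD2 and SMAD3 and is on 2 of the lists, rose by 0.22 ± 0.051 on the log2 scale (SE).

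The target genes that fell included TGFBI and CDKN1A, at mean levels of 70.7 and 71.5 FPKM in NC. TGFBI, a secreted matrix protein named for its induction by TGF-beta, had 674, 714 and 671 CPM in NC and 198, 186 and 185 CPM in siFSCN1. No other target gene differed by as much, and the log2 fold change was -1.86 ± 0.041 (SE, adjusted p = 3.06e-16 in edgeR). CDKN1A, the cell cycle inhibitor p21 and also a p53 target, was at 271, 269 and 268 CPM in NC and at 129, 126 and 129.6 CPM in siFSCN1 (log2 fold change -1.07 ± 0.036, adjusted p = 3.11e-14 in edgeR). The target genes PMEPA1, CCN2 and CDKN1A each overlap a non-coding gene on the opposite strand (NKILA, LINC01013 and DINOL).

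Target genes of BMP signalling were more often lower than higher. Of 5 tested, 1 was higher, 3 were lower and 1 did not pass under TMM, with a median of -0.41. Of all genes 35.1% were higher and 33.2% lower. The number higher was 2 in 6 of 16 alternatives, among them library totals and upper quartile scaling, and the number lower was 3 in each. ID1, ID2 and ID3 encode inhibitors of basic helix-loop-helix factors. ID3 had 295, 274 and 282 CPM in NC and 154, 133 and 131 CPM in siFSCN1 (log2 fold change -1.02 ± 0.052, adjusted p = 6.09e-12 in edgeR). ID2 fell by 0.48 ± 0.052 and ID1 by 0.41 ± 0.051 on the log2 scale (SE), and ATOH8 rose by 0.93 ± 0.10. In the branch that does not use SMADs, 4 of 14 tested genes were higher, 5 were lower and 5 did not pass under TMM, with a median of -0.025. Of all genes 35.1% were higher and 33.2% lower under TMM. The split of this branch was 8 higher and 4 lower under library totals and 7 and 4 under upper quartile scaling. MAP3K7, the kinase TAK1, rose by 0.39 ± 0.067 on the log2 scale (SE). TRAF4 fell by 0.60 ± 0.052, DAXX by 0.41 ± 0.054 and MAP2K6 by 0.35 ± 0.052 on the same scale (SE). MAP2K6 did not pass in 2 of 16 alternatives, and DAXX overlaps an unnamed gene on its own strand.

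**Figure D5:**
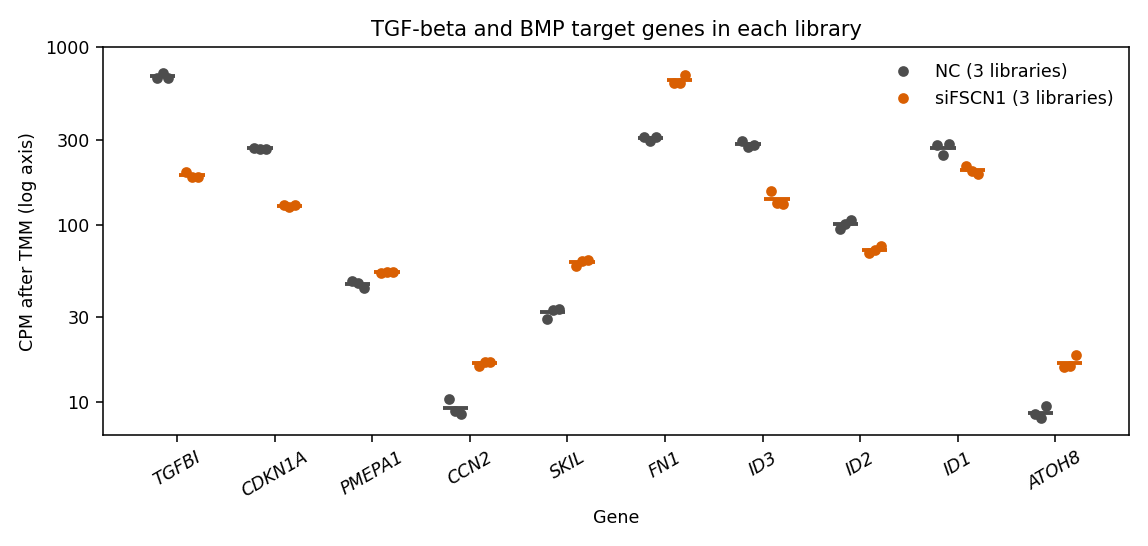
CPM after TMM scaling, on a log axis, of 10 named target genes of TGF-beta (TGFBI to FN1) and BMP (ID3 to ATOH8), with a point for each of the 3 NC (grey) and 3 siFSCN1 (orange) libraries and a line at each group's mean. TGFBI, CDKN1A and the 3 ID genes are lower in siFSCN1, the others are higher, and no gene has overlapping groups.

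For each member, the gene with the most similar profile over the 6 libraries was sought among 11096 genes, by the distance between centred log2 CPM values. The search itself picks genes of near-equal fold change, so the closeness of the paired values below is not a result. TGFB2 lay nearest to C5, a complement gene, at a distance of 0.0859 (log2 fold changes 1.59 and 1.64). TGFBR1 lay nearest to PTGFRN (0.56 and 0.56), TGFBR2 to NEURL4 (0.30 and 0.29) and TGFBR3 to CXCL2 (0.80 and 0.76). The distance of TGFBR3 to CXCL2, 0.117, was the largest of the members. SMAD3 lay nearest to TPBG (-0.30 and -0.28), SMAD4 to RNF185 (-0.23 and -0.20), SMAD7 to CCDC6 (-0.28 and -0.30) and SMAD6 to MANBAL (-0.16 in both), whose changes under library totals were 0.027 and 0.031. TGFB1 lay nearest to TMEM18 (0.036 and 0.025) and SMAD2 to ETV6 (0.078 and 0.13). The members themselves were left out of the genes searched, so their profiles were not compared with each other.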

How the data were processed

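Polyadenylated RNA of 3 NC and 3 siFSCN1 libraries was sequenced by the authors, who trimmed reads (FASTX Toolkit 0.0.13), aligned them to GRCh38 with HISAT2 per the methods (the labels name TopHat2) and deposited raw counts per gene (30230 genes) and FPKM (29899 genes) from uniquely mapped reads. The counting program, strand setting and annotation release are not given in the sources used here; the labels describe strand-marked libraries. The deposited FPKM of most members fit the exonic length in GENCODE release 44, from which positions and overlaps were also taken.

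Counts, 27967301 to 36560919 per library, were filtered with filterByExpr, scaled by TMM and tested with edgeR 4.0.16 (R 4.3.3) by quasi-likelihood, with Benjamini-Hochberg adjustment over 17076 genes and no covariate. A gene passed at an adjusted p under 0.05 and was called at 2-fold. The authors used DESeq2, run here (1.42.0) as an alternative beside limma 3.58.1, other scalings and filters, a replicate block and leave-one-out fits. CPM are after TMM. Ratios of deposited FPKM were compared by exact permutation (scipy 1.17.1). Code was tested on simulated data.

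The members and lists were chosen with earlier results of these data known, as was the use of MANE Select lengths. Named genes were the members, the established targets CCN2, PMEPA1 and CDKN1A, FSCN1, the up to 4 largest changes per list that passed without overlap in CPM at a mean FPKM of at least 1, and each member's nearest profile among genes at that FPKM. Same-numbered libraries did not deviate together (r of -0.035, 0.04 and -0.084). Some genes that meet these rules are counted in their lists but not reported here.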

Additional observations from a re-analysis of the deposited data

How the results depend on the processing

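Across 16 alternatives TGFB2, TGFBR1, TGFBR2 and TGFBR3 kept direction and passed, as did 30 of 32 named pathway genes, and none of the 32 reversed. The SMADs and TGFB1 depended on the scaling between libraries, under which the median gene itself moved to 0.15 (upper quartile) and 0.22 (library totals). Under upper quartile scaling, library totals, log2(FPKM + 0.1), log2(FPKM + 1) and, where given, cyclic loess, in that order, TGFB1 passed at 0.15, 0.22, 0.20, 0.20 and 0.26 and SMAD2 at 0.20, 0.27, 0.23, 0.14 and 0.23, SMAD4 did not pass at -0.12, -0.048, -0.065 and -0.045 nor SMAD7 at -0.16, -0.090, -0.11 and -0.083, and SMAD6 was at -0.043, 0.027, 0.0051, 0.0045 and 0.0024. SMAD3 did not pass after cyclic loess (-0.028). Members passing lower numbered 1, 1, 1, 1 and 2 in the same order. Leaving out single libraries moved TGFB1 from -0.019 (without siFSCN1 replicate 1) to 0.052. MANBAL turned to 0.031, 0.010, 0.010 and 0.035 under library totals, both FPKM fits and cyclic loess, and TMEM18 to -0.0034 with DESeq2 and to -0.032 at the lowest and 0.040 at the highest when single libraries were left out (below 0 without NC or siFSCN1 replicate 1). Genes changed at least 2-fold numbered 471 with log2(FPKM + 1) against 2820. Without a filter 11 BMP, GDF and activin ligands and 3 BMP-arm SMADs passed, and with a stricter filter 4 such ligands and 3 antagonists. BMP-arm SMADs numbered 2 with RLE size factors and 1 to 2 when single libraries were left out (2 without NC replicate 1 or 3 or siFSCN1 replicate 1 or 2). With log2(FPKM + 0.1) and log2(FPKM + 1) alike, 12 SMAD regulators were higher and 4 lower, and 7 and 3 genes of the branch without SMADs. The cause of these moves was not tested, other than that filters change which genes are tested.

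A fit with the replicate number as a block gave 2 BMP-arm SMADs instead of 1 and changed no member's call, with TGFB2 at 1.59 and 8 members passing. Library numbers were not found to pair the samples. Low counts limit TGFB3 and the genes under 1 CPM, and 3 libraries a group limit every exact test of a ratio to a p of 0.1.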
